A study of Homo sapiens with 9 samples.

Results

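The actin cytoskeleton and contractile genes described here are 47 genes picked by name from the 36225 genes of the deposited table. They encode the actins, the chains of myosin II, the proteins that coat, crosslink, cut, cap or start actin filaments, adhesion proteins that anchor filaments at the cell membrane, and the transcription factor SRF. All 47 were found in the table and all passed the filter on low counts.

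Actin exists as monomers and as filaments. The Arp2/3 complex starts branched filaments and the formins start and lengthen unbranched ones, while cofilin cuts filaments and profilin loads monomers for growth. Tropomyosins and caldesmon coat filaments and regulate the access of myosin II, whose heavy chains pull on actin and whose light chains tune that pull. SRF and its MRTF coactivators, which are held back by free actin monomers, switch on many of these genes, and the tension that actomyosin generates is a known input to the coactivators YAP and TAZ in epithelial cells.

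The RNA came from RBE, a human cell line grown from a cholangiocarcinoma, which is a bile duct cancer, of the kind that arises inside the liver. The cells carried a lentiviral short hairpin RNA against IDH1 (shIDH1), which encodes the cytosolic NADP-dependent isocitrate dehydrogenase, a hairpin against JOSD2 (shJOSD2), which encodes a deubiquitinase of the Josephin family, or a scramble construct (control). Each group had 3 libraries, 9 in all, so lentiviral infection was common to every group. The submitters' title ties JOSD2 to mutant IDH1 and to YAP/TAZ. How many hairpin sequences stood behind a group, and whether its libraries came from separate infections, is not given in the labels, and the p-values therefore measure the spread among these libraries, which may be technical.

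Promoter sequence is shown first because SRF is the shared regulator of many of these genes and its binding motif, the CArG box, can be read by eye. The windows come from RefSeq on GRCh38.p14 and run from 250 bases before to 50 bases after a gene's annotated start. Of the 47 genes 42 matched, all but ACTB, TAGLN, MYL9, ARPC1B and PFN2, with 81 windows between them. A CArG box, a run of A and T bases between CC and GG, was searched on both strands, where it reads the same. It was found in the windows of 8 of the 42 genes (19.0%), which were ACTG1, ACTN1, CNN2, TPM4, FLNA, SRF, FHL1 and FHL2, against 1.60% of all 27305 genes with a window. Counted by window, 12.3% of the members' windows held it, against 1.29% of all 35116 windows. With 1 mismatch allowed in the A and T core, the shares were 38.1% of the 42 genes and 9.88% of all genes, and ACTA2, ZYX, CALD1 and CFL2 were among the genes added. GGAATG, the core bound by the TEAD partners of YAP and TAZ, was found on either strand (as GGAATG or CATTCC) for 13 of the 42 genes (31.0%), against 16.7% of all genes. Counted by window, which allows for genes with several windows, GGAATG was in 17.3% of the members' windows, against 14.0% of all windows, a much smaller gap. A match is a description of the letters and not a sign of binding.

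The 250 bases before the start are printed for SRF itself, for ACTG1, FLNA and TPM4, whose transcripts fell with both hairpins, for FHL1, whose transcripts rose with both, and for ACTA2, which rose with both while the cytoplasmic actins fell. Capitals mark the CArG box, or for ACTA2 the boxes with 1 mismatch. The SRF window (chr6:43171019-43171268, plus strand) held 2 boxes, with first bases at -30 and -10, counted from the start. The ACTG1 window (chr17:81512800-81513049, minus strand) and the FLNA window (chrX:154374635-154374884, minus strand) each held 1 box from -94. The TPM4 window (chr19:16067288-16067537, plus strand) held 1 box from -173. The FHL1 window printed here (chrX:136196797-136197046, plus strand) held 1 box from -126. FHL1 has further annotated starts, whose windows held no exact box, and gene-level values do not separate the starts. The ACTA2 window (chr10:88952774-88953023, minus strand) held 2 mismatched boxes, from -121 and -71, and a GGAATG from -183.
SRF: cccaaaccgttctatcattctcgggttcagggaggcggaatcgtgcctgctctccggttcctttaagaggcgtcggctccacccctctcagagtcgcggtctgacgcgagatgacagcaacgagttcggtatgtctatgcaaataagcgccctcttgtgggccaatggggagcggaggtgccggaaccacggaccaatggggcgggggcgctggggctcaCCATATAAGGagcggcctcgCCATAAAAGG
ACTG1: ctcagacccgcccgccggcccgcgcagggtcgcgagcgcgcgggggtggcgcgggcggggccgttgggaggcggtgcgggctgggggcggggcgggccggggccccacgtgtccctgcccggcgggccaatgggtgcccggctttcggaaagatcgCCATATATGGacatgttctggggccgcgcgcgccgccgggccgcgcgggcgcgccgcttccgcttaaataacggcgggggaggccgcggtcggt
FLNA: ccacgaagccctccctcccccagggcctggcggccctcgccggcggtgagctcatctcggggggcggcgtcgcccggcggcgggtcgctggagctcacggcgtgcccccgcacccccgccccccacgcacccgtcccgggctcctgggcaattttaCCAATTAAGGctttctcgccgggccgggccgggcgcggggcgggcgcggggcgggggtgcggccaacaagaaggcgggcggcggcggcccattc
TPM4: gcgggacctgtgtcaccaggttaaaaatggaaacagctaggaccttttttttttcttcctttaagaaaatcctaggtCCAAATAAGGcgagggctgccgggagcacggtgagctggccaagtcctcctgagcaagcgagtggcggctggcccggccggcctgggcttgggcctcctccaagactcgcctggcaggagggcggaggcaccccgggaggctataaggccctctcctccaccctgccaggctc
FHL1: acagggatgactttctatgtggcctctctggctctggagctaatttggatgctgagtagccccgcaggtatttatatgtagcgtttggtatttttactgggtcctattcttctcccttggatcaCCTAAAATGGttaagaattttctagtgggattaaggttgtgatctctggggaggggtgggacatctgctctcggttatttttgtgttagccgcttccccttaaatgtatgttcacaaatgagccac
ACTA2: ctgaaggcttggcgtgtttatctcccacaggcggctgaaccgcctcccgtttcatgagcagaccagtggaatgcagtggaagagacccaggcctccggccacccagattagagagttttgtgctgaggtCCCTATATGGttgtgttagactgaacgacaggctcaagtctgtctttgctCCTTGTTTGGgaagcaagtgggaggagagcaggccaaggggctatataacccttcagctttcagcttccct

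The targeted genes were lower under their own hairpins. IDH1 averaged 12.6 ± 0.446 FPKM in shIDH1 libraries and 44.0 ± 4.44 FPKM in control libraries (SD, n = 3 each, as for every mean FPKM that follows). JOSD2 averaged 0.795 ± 0.101 FPKM in shJOSD2 libraries and 6.37 ± 0.260 FPKM in control libraries. JOSD2 was also low in shIDH1 libraries, at 1.69 ± 0.174 FPKM (log2 change -1.90 ± 0.16; edgeR adjusted p = 7.69e-07), and IDH1 was lower in shJOSD2 libraries, at 34.5 ± 1.56 FPKM (-0.50 ± 0.07; edgeR adjusted p = 8.66e-05). Library totals lay between 66036276 and 71612713 deposited counts. Control replicate 1 stood apart from the other controls in hepatocyte genes, with APOA1 at 2.91, 40.05 and 45.55 FPKM in control replicates 1, 2 and 3, so each call of a member against control that changed without it, or with it as the lone control, is named with its value at that gene. The fit scales libraries by TMM, and the deposited FPKM are not scaled that way. TMM factors were 1.069 to 1.082 for shJOSD2 libraries and 0.942 to 0.985 for the others, so an FPKM ratio sits higher for shJOSD2 than the fitted change by about the distance between the medians of all genes with and without TMM, which were 0.03 and 0.18 on the log2 scale.

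More of these genes were lower than higher with each hairpin. A gene was called when edgeR's quasi-likelihood test, fitted on all 9 libraries and all 21492 tested genes, gave a Benjamini-Hochberg adjusted p under 0.05. In shIDH1 against control, 7 of the 47 genes were called higher, where 24.5% of all tested genes were, and 30 were called lower (63.8%), where 25.6% of all tested genes were. The median log2 change over the 47 was -0.48, against 0.01 over all tested genes. In shJOSD2 against control, 6 were called higher, with 18.2% of all tested genes, and 31 were called lower (66.0%), with 20.1% of all tested genes. The median over the 47 was -0.39, against 0.03 over all tested genes. Both comparisons use the same control libraries, so they are not independent of each other. The 47 genes were chosen with earlier results of these data known. Their shares beside those of all tested genes are therefore a description and not a test. Without TMM the shJOSD2 counts were 8 higher and 25 lower of the 47, and 5638 higher and 2934 lower over all genes in place of 3907 and 4330. Among single members without TMM, the shJOSD2 changes of ACTN4, ARPC2 and CAPZB were -0.27, -0.27 and -0.22, each smaller than the fitted value given with that gene.

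The summed level of the 47 genes was lower under both hairpins. It was 4064, 3914 and 4156 FPKM in shIDH1 libraries, 4111, 3945 and 3960 FPKM in shJOSD2 libraries, and 5713, 6460 and 5835 FPKM in control libraries. The sum made up 1.33% ± 0.0448 of all FPKM in shIDH1 libraries, 1.27% ± 0.0256 in shJOSD2 libraries and 1.99% ± 0.112 in control libraries (SD, n = 3 each). The control range lay above both hairpin ranges. The sum weighs the most abundant genes. The 3 actins alone averaged 1539 FPKM in shIDH1, 1417 FPKM in shJOSD2 and 2548 FPKM in control libraries, within mean sums of 4045, 4005 and 6003 FPKM for all 47. Since bulk RNA was measured, fewer cells with a transcript and less transcript per cell cannot be told apart here or in any value that follows.

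**Figure D1:**
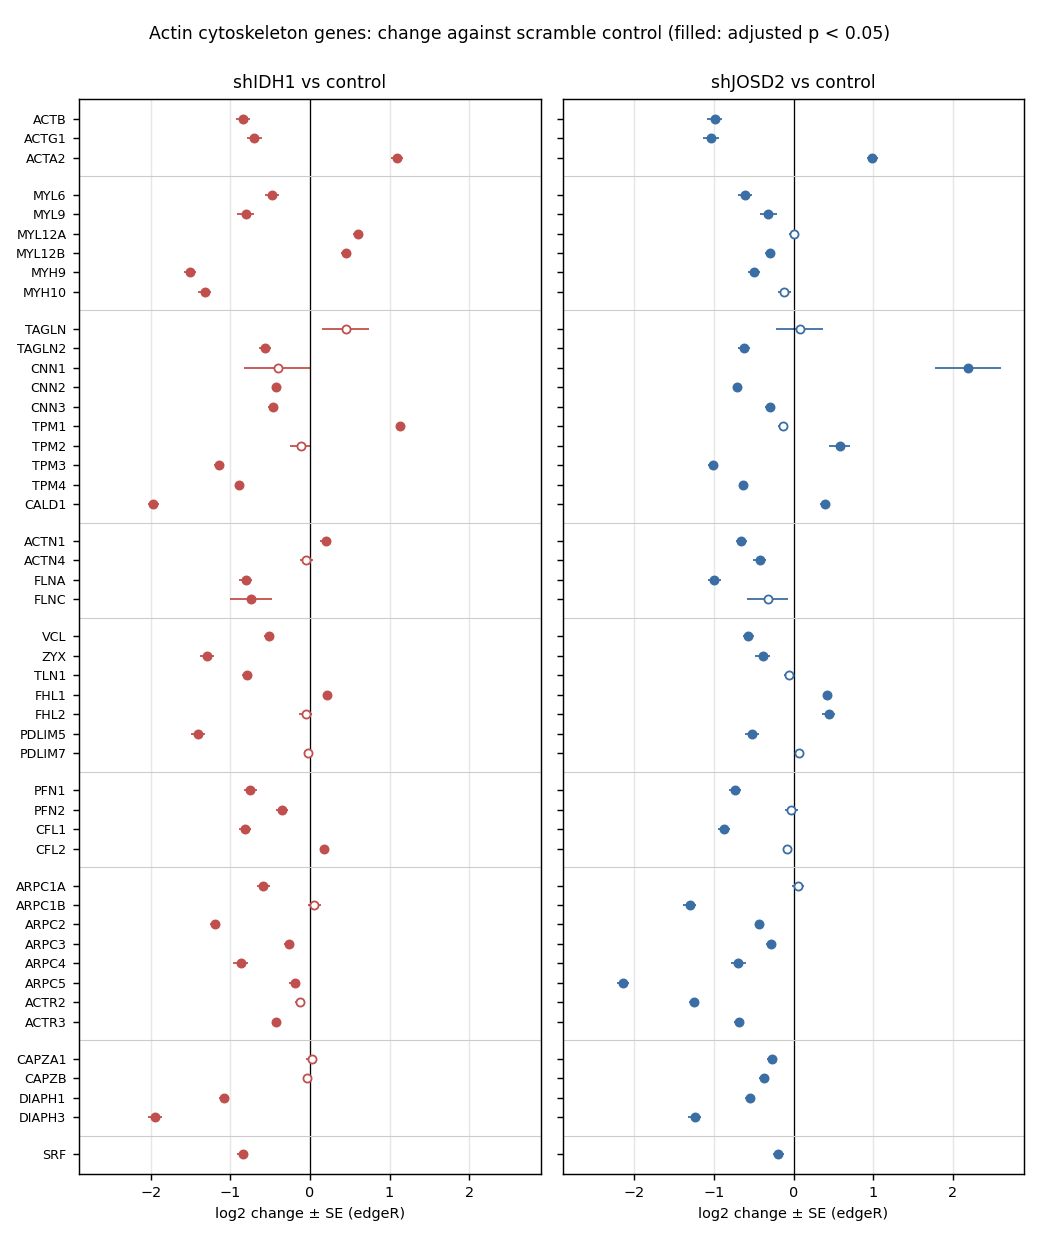
Fitted log2 change (x axis, edgeR, ± SE, 3 libraries per group) of each of the 47 genes (rows, grouped by role) in shIDH1 against control (left) and shJOSD2 against control (right), with filled points for an adjusted p under 0.05. Most filled points lie left of 0 in both panels, while ACTA2 lies to the right in both, TPM1 is filled at 1.13 in the left panel and CNN1 at 2.19 in the right one.

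Among the actins, both cytoplasmic forms fell and the smooth muscle form rose under each hairpin. ACTB, cytoplasmic beta-actin (ENSG00000075624; GRCh38 chromosome 7, 5526409 to 5563902, minus strand), stood at 536, 497 and 568 FPKM in shIDH1 libraries, 567, 510 and 515 FPKM in shJOSD2 libraries, and 879, 1060 and 915 FPKM in control libraries. Every hairpin library lay below every control library. The fitted log2 change of ACTB, given ± SE here and for every gene, was -0.84 ± 0.09 in shIDH1 cells (edgeR adjusted p = 7.81e-06) and -0.99 ± 0.09 in shJOSD2 cells (edgeR adjusted p = 4.91e-06). ACTG1, cytoplasmic gamma-actin (ENSG00000184009; chromosome 17, 81509971 to 81514640, minus strand), stood at 949, 949 and 1038 FPKM in shIDH1 libraries, 884, 838 and 852 FPKM in shJOSD2 libraries, and 1443, 1816 and 1492 FPKM in control libraries. Its 3 groups did not overlap. ACTG1 fell by 0.70 ± 0.10 in shIDH1 cells and by 1.04 ± 0.10 in shJOSD2 cells, and was 0.34 ± 0.10 higher in shIDH1 than in shJOSD2 cells (edgeR adjusted p = 0.0120), a difference that was not called without TMM or without shIDH1 replicate 3, among others. Both genes have many processed copies in the annotation (10 named pseudogenes of ACTB and 20 of ACTG1), whose reads the counting may have shared. The same holds for other members with named pseudogenes, among them CNN2 (11), PFN1 (10), CFL1 (8), TPM3 (8) and MYL6 (5).

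ACTA2, the actin of vascular smooth muscle and of myofibroblasts (ENSG00000107796; chromosome 10, 88935074 to 88991339, minus strand), stood at 26.1, 27.4 and 28.4 FPKM in shIDH1 libraries, 28.6, 28.4 and 27.5 FPKM in shJOSD2 libraries, and 13.8, 12.9 and 11.7 FPKM in control libraries. The hairpin groups overlapped each other and lay above the controls. It rose by 1.09 ± 0.07 in shIDH1 cells (edgeR adjusted p = 7.31e-08) and by 0.99 ± 0.07 in shJOSD2 cells (edgeR adjusted p = 5.94e-07), and the hairpins differed by 0.10 ± 0.07 (edgeR adjusted p = 0.263). Within the summed FPKM of the 3 actins, ACTA2 made up 1.78% ± 0.0732 in shIDH1 libraries, 1.99% ± 0.0675 in shJOSD2 libraries and 0.506% ± 0.0742 in control libraries (SD, n = 3 each), so the cytoplasmic forms held nearly all actin transcript in every group. The exact two-sided permutation p of each hairpin against control was 0.1, the smallest that 3 against 3 libraries allow. The annotation places STAMBPL1, ACTA2-AS1 and FAS across ACTA2 on the other strand, and the counting's strand setting is not given in the sources used here.

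**Figure D2:**
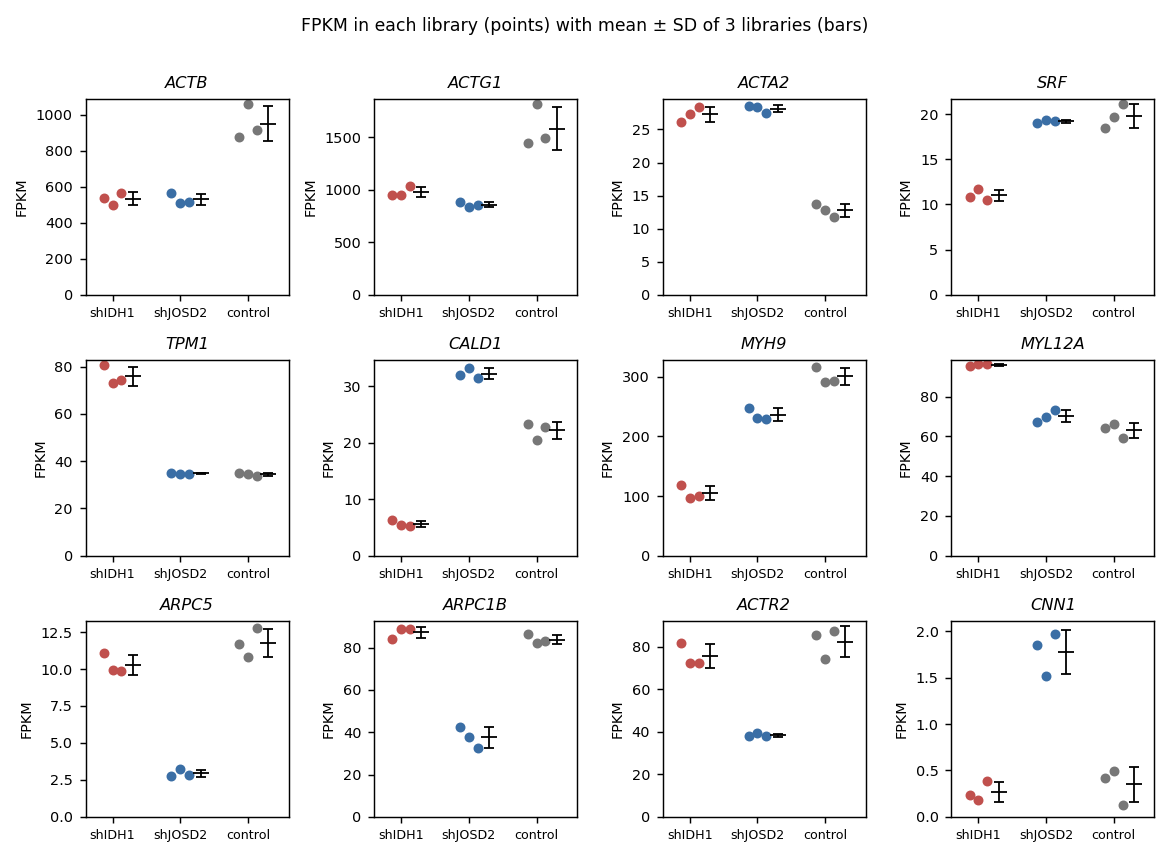
Deposited FPKM (y axes from 0) of 12 of the genes in each library (points) with the mean ± SD of 3 libraries (bars), for shIDH1, shJOSD2 and control from left to right in each panel. ACTB and ACTG1 are low and ACTA2 is high under both hairpins, TPM1, CALD1, MYH9 and SRF stand apart in shIDH1, and ARPC5, ARPC1B, ACTR2 and CNN1 stand apart in shJOSD2.

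SRF, the transcription factor that binds CArG boxes (ENSG00000112658; chromosome 6, 43171269 to 43181506, plus strand), was lower mainly in shIDH1 cells. It stood at 10.8, 11.7 and 10.5 FPKM in shIDH1 libraries, 19.0, 19.3 and 19.2 FPKM in shJOSD2 libraries, and 18.5, 19.6 and 21.1 FPKM in control libraries. The shIDH1 range lay below the others, and the shJOSD2 range lay within that of the controls. SRF fell by 0.85 ± 0.07 in shIDH1 cells (edgeR adjusted p = 5.50e-07) and was 0.66 ± 0.07 lower there than in shJOSD2 cells (log2 difference -0.66; edgeR adjusted p = 6.99e-06). In shJOSD2 cells the change was -0.19 ± 0.07 (edgeR adjusted p = 0.0434), a call that was lost in 15 of 20 alternative settings (-0.06 with control replicate 1 as the lone control). Among the 8 genes with a CArG box, the fitted changes in shIDH1 cells ran from the -0.89 of TPM4 to the 0.22 of FHL1, and in shJOSD2 cells from the -1.04 of ACTG1 to the 0.44 of FHL2.

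The myosin II genes fell on the heavy chain side, most of all in shIDH1 cells, while the main regulatory light chain genes rose there. MYH9, the heavy chain of non-muscle myosin IIA (ENSG00000100345; chromosome 22, 36281280 to 36387967, minus strand), stood at 119, 97.3 and 101 FPKM in shIDH1 libraries, 248, 231 and 230 FPKM in shJOSD2 libraries, and 317, 292 and 294 FPKM in control libraries. The groups did not overlap, with shIDH1 lowest. MYH9 fell by 1.51 ± 0.07 in shIDH1 cells (edgeR adjusted p = 9.12e-09) and by 0.49 ± 0.07 in shJOSD2 cells (edgeR adjusted p = 0.000179), and the difference between the hairpins was -1.02 ± 0.07 (edgeR adjusted p = 3.05e-07). MYH10, the heavy chain of non-muscle myosin IIB, stood at 6.61, 5.84 and 5.06 FPKM in shIDH1 libraries, 15.4, 15.0 and 14.4 FPKM in shJOSD2 libraries, and 14.7, 13.5 and 15.7 FPKM in control libraries. Only shIDH1 libraries stood apart. MYH10 fell by 1.32 ± 0.08 in shIDH1 cells, its change of -0.12 ± 0.08 in shJOSD2 cells was not called, and the hairpins differed by -1.21 ± 0.08 (edgeR adjusted p = 1.82e-07). MYH9 made up 94.8% ± 0.442 of the summed FPKM of both chains in shIDH1 libraries, 94.1% ± 0.134 in shJOSD2 libraries and 95.4% ± 0.370 in control libraries.

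MYL12A and MYL12B encode the regulatory light chains of non-muscle myosin II. MYL12A stood at 95.5, 96.4 and 96.3 FPKM in shIDH1 libraries, 67.1, 70.0 and 73.4 FPKM in shJOSD2 libraries, and 64.3, 66.0 and 59.0 FPKM in control libraries. It rose by 0.60 ± 0.06 in shIDH1 cells (edgeR adjusted p = 4.62e-06), and its fitted change in shJOSD2 cells was 0.00 ± 0.06. MYL12B stood at 221, 231 and 239 FPKM in shIDH1 libraries, 147, 150 and 158 FPKM in shJOSD2 libraries, and 169, 175 and 159 FPKM in control libraries. All shIDH1 libraries lay above the others for both genes. MYL12B rose by 0.45 ± 0.06 in shIDH1 cells (edgeR adjusted p = 6.56e-05) and fell by 0.30 ± 0.06 in shJOSD2 cells (edgeR adjusted p = 0.00274), a shJOSD2 call that was absent without TMM. The hairpins differed by 0.60 ± 0.06 for MYL12A and by 0.75 ± 0.06 for MYL12B (edgeR adjusted p = 6.56e-06 and 1.23e-06). The 2 genes are neighbours on chromosome 18 with near-identical coding sequences, so their reads may have been split between them.

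MYL9, the regulatory light chain typical of smooth muscle, stood at 6.14, 5.27 and 6.55 FPKM in shIDH1 libraries, 9.95, 9.32 and 8.74 FPKM in shJOSD2 libraries, and 10.4, 11.1 and 9.89 FPKM in control libraries. It fell by 0.81 ± 0.10 in shIDH1 cells (edgeR adjusted p = 2.62e-05) and by 0.31 ± 0.10 in shJOSD2 cells (edgeR adjusted p = 0.0264), where the groups overlapped and the call was lost in 8 of 20 settings (-0.28 with control replicate 1 as the lone control). Its share of the regulatory light chain FPKM was 1.80% ± 0.187 in shIDH1 libraries, 4.05% ± 0.393 in shJOSD2 libraries and 4.34% ± 0.0608 in control libraries. MYL6, the essential light chain, stood at 80.5, 76.8 and 80.96 FPKM in shIDH1 libraries, 72.6, 79.3 and 89.0 FPKM in shJOSD2 libraries, and 103, 122 and 106 FPKM in control libraries. Both hairpin groups lay below the controls and overlapped each other, and MYL6 fell by 0.48 ± 0.09 in shIDH1 cells and by 0.61 ± 0.09 in shJOSD2 cells (edgeR adjusted p = 0.000642 and 0.000173). MYL6B overlaps MYL6 on the same strand in the annotation, and the counting may have shared reads between them.

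The tropomyosin genes moved in opposite directions in shIDH1 cells, TPM1 up and TPM3 and TPM4 down. TPM1 (ENSG00000140416; chromosome 15, 63042632 to 63071915, plus strand) stood at 80.5, 73.0 and 74.4 FPKM in shIDH1 libraries, 35.0, 34.7 and 34.7 FPKM in shJOSD2 libraries, and 35.2, 34.5 and 33.9 FPKM in control libraries. Every shIDH1 library lay more than 2-fold above every library of the other groups. TPM1 rose by 1.13 ± 0.05 in shIDH1 cells (edgeR adjusted p = 6.66e-09) and was 1.27 ± 0.05 higher there than in shJOSD2 cells (edgeR adjusted p = 4.99e-09). The shJOSD2 change of -0.14 ± 0.05 was not called (edgeR adjusted p = 0.0608), was called with DESeq2, with RLE size factors and without shIDH1 replicate 1, and turned to 0.02 without TMM. TPM3 stood at 16.1, 14.6 and 14.7 FPKM in shIDH1 libraries, 17.8, 18.6 and 18.6 FPKM in shJOSD2 libraries, and 32.8, 32.1 and 35.2 FPKM in control libraries. It fell by 1.15 ± 0.06 in shIDH1 cells and by 1.02 ± 0.06 in shJOSD2 cells (edgeR adjusted p = 9.69e-09 and 1.14e-07).

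TPM4 stood at 22.7, 20.8 and 20.8 FPKM in shIDH1 libraries, 28.2, 27.6 and 29.2 FPKM in shJOSD2 libraries, and 41.6, 39.2 and 38.3 FPKM in control libraries, with no overlap between groups. It fell by 0.89 ± 0.05 in shIDH1 cells and by 0.63 ± 0.05 in shJOSD2 cells (edgeR adjusted p = 5.39e-08 and 2.74e-06). TPM2, the least abundant of the family, stood at 1.80, 2.10 and 1.898 FPKM in shIDH1 libraries, 3.61, 3.43 and 3.39 FPKM in shJOSD2 libraries, and 2.46, 1.92 and 1.92 FPKM in control libraries. Only shJOSD2 libraries stood apart, and TPM2 rose there by 0.58 ± 0.13 (edgeR adjusted p = 0.00378), a call lost with control replicate 1 as the lone control (0.38).

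**Figure D3:**
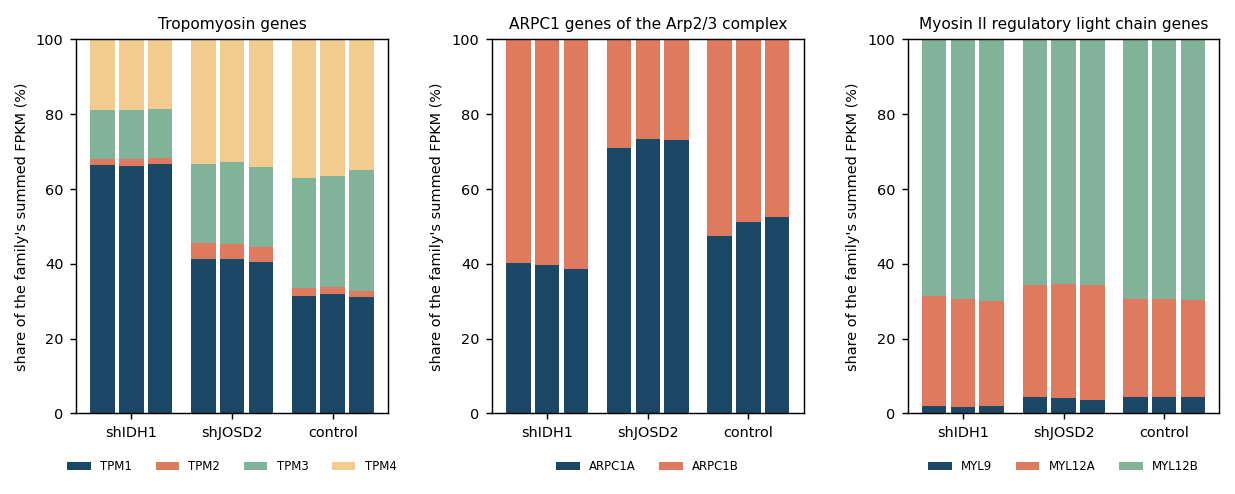
Share of each family's summed FPKM (y axis, percent) held by each gene in every library (bars), for the tropomyosins (left), the ARPC1 pair (middle) and the myosin II regulatory light chains (right), with shIDH1, shJOSD2 and control from left to right. TPM1 holds 66.4% of tropomyosin FPKM in shIDH1 libraries, and ARPC1A holds 72.4% of the ARPC1 pair in shJOSD2 libraries.

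As a result the make-up of tropomyosin transcript differed between the groups. TPM1 made up 66.4% ± 0.264 of the family's FPKM in shIDH1 libraries, 41.0% ± 0.521 in shJOSD2 libraries and 31.5% ± 0.517 in control libraries (SD, n = 3 each). TPM3 made up 13.2% ± 0.0820 in shIDH1 libraries, 21.5% ± 0.517 in shJOSD2 libraries and 30.4% ± 1.57 in control libraries. TPM4 made up 18.7% ± 0.124 in shIDH1 libraries, 33.4% ± 0.654 in shJOSD2 libraries and 36.2% ± 1.07 in control libraries. No group's range of shares overlapped another's for TPM1, TPM3 or TPM4, and the exact two-sided permutation p was 0.1 for each pair of groups, the smallest possible. Shares of the deposited counts in place of FPKM gave the same order (TPM1 at 67.6% in shIDH1, 42.9% in shJOSD2 and 32.1% in control libraries). Tropomyosin genes each give several isoforms, which gene-level values do not separate.

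Among those of the 47 genes that exceeded 1 FPKM in every library, caldesmon showed the widest difference between the hairpins. CALD1, which holds myosin off the filament (ENSG00000122786; chromosome 7, 134744252 to 134970729, plus strand), stood at 6.28, 5.53 and 5.20 FPKM in shIDH1 libraries, 32.1, 33.3 and 31.4 FPKM in shJOSD2 libraries, and 23.3, 20.6 and 22.8 FPKM in control libraries. No groups overlapped, with shIDH1 lowest and shJOSD2 highest. CALD1 fell by 1.97 ± 0.07 in shIDH1 cells (edgeR adjusted p = 9.92e-10) and rose by 0.39 ± 0.07 in shJOSD2 cells (edgeR adjusted p = 0.000452). The difference between the hairpins was -2.36 ± 0.07 (edgeR adjusted p = 5.68e-10), a ratio of mean FPKM of 5.69 in favour of shJOSD2.

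Of the calponins, which bind actin and slow myosin, CNN1 is the smooth muscle form and was at low levels. It stood at 0.232, 0.177 and 0.385 FPKM in shIDH1 libraries (48, 36 and 82 counts), 1.86, 1.52 and 1.97 FPKM in shJOSD2 libraries (386, 302 and 387 counts), and 0.422, 0.495 and 0.131 FPKM in control libraries (88, 101 and 27 counts). Only shJOSD2 libraries stood apart. CNN1 rose by 2.19 ± 0.42 in shJOSD2 cells (edgeR adjusted p = 0.00120), its change of -0.40 ± 0.42 in shIDH1 cells was not called, and on log2(FPKM + 1) the shJOSD2 rise was 1.05. CNN2 averaged 35.8 ± 0.584 FPKM in shIDH1, 32.6 ± 0.717 FPKM in shJOSD2 and 48.0 ± 0.592 FPKM in control libraries, and fell by 0.42 ± 0.05 in shIDH1 cells and by 0.70 ± 0.05 in shJOSD2 cells. CNN3 averaged 37.3 ± 3.94 FPKM in shIDH1, 46.3 ± 0.150 FPKM in shJOSD2 and 51.5 ± 1.64 FPKM in control libraries. CNN3 fell by 0.46 ± 0.07 in shIDH1 cells and by 0.30 ± 0.07 in shJOSD2 cells, the second of these not called without TMM.

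The transgelins crosslink or stabilise filaments. TAGLN2 averaged 244 ± 11.7 FPKM in shIDH1, 260 ± 7.05 FPKM in shJOSD2 and 361 ± 27.6 FPKM in control libraries. It fell by 0.57 ± 0.07 in shIDH1 cells and by 0.62 ± 0.07 in shJOSD2 cells. TAGLN, the smooth muscle form, averaged 0.377 ± 0.0737 FPKM in shIDH1, 0.319 ± 0.0440 FPKM in shJOSD2 and 0.274 ± 0.110 FPKM in control libraries, and was called in neither. It was called higher in shIDH1 cells when control replicate 1, the lowest TAGLN library at 0.156 FPKM, was the lone control (1.29). Thus the smooth muscle genes ACTA2, CNN1, TAGLN and MYL9 did not move as a block: ACTA2 was called higher with both hairpins, CNN1 with shJOSD2, MYL9 lower, and TAGLN not at all.

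Filamin A and the alpha-actinins crosslink filaments into networks and bundles. FLNA averaged 339 ± 16.7 FPKM in shIDH1, 329 ± 16.2 FPKM in shJOSD2 and 591 ± 45.1 FPKM in control libraries, and fell with log2 changes of -0.81 ± 0.08 in shIDH1 cells and -0.9965 ± 0.08 in shJOSD2 cells (edgeR adjusted p = 3.41e-06 and 1.66e-06). The hairpins differed by 0.19 ± 0.08 for FLNA, which was not called, and by 0.20 with a call when control replicate 1 was the lone control. ACTN1 moved apart between the hairpins, averaging 58.8 ± 1.44 FPKM in shIDH1, 36.1 ± 0.640 FPKM in shJOSD2 and 51.2 ± 3.71 FPKM in control libraries. It fell by 0.65 ± 0.07 in shJOSD2 cells (edgeR adjusted p = 1.17e-05) and was 0.85 ± 0.07 higher in shIDH1 than in shJOSD2 cells (edgeR adjusted p = 7.16e-07). Its rise of 0.20 ± 0.07 in shIDH1 cells (edgeR adjusted p = 0.0276) was lost without control replicate 1 (0.19), control replicate 3, shIDH1 replicate 1 or shIDH1 replicate 3. ACTN4 averaged 218 ± 7.97 FPKM in shIDH1, 185 ± 7.47 FPKM in shJOSD2 and 224 ± 21.8 FPKM in control libraries, and fell by 0.42 ± 0.08 in shJOSD2 cells, with -0.04 ± 0.08 in shIDH1 cells and a called difference of 0.38 ± 0.08 between them. FLNC, the muscle filamin, lay between 0.436 and 1.05 FPKM over all libraries. Its change of -0.74 ± 0.26 in shIDH1 cells (edgeR adjusted p = 0.0318) was lost in 8 of 20 settings and was 0.03 with control replicate 1 as the lone control. In shJOSD2 cells FLNC changed by -0.33 ± 0.26, which was not called, and without control replicate 1 it was called lower (-0.59; edgeR adjusted p = 0.0351).

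At focal adhesions, talin links integrins to actin, vinculin reinforces the link, and zyxin and the LIM proteins gather at stress fibres. ZYX stood at 29.6, 26.7 and 27.2 FPKM in shIDH1 libraries, 63.5, 57.2 and 51.8 FPKM in shJOSD2 libraries, and 62.5, 72.8 and 68.4 FPKM in control libraries. The shIDH1 range lay below the others, which overlapped. ZYX fell by 1.29 ± 0.09 in shIDH1 cells (edgeR adjusted p = 1.41e-07) and by 0.39 ± 0.09 in shJOSD2 cells (edgeR adjusted p = 0.00376), the second call being lost with control replicate 1 as the lone control (-0.24). PDLIM5, a PDZ and LIM scaffold of stress fibres, stood at 2.10, 1.87 and 1.67 FPKM in shIDH1 libraries, 4.04, 3.96 and 3.60 FPKM in shJOSD2 libraries, and 5.40, 4.45 and 5.16 FPKM in control libraries. With no overlap between groups, PDLIM5 fell by 1.41 ± 0.09 in shIDH1 cells and by 0.52 ± 0.09 in shJOSD2 cells (edgeR adjusted p = 7.22e-08 and 0.000545).

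TLN1 averaged 22.1 ± 1.68 FPKM in shIDH1, 40.7 ± 1.77 FPKM in shJOSD2 and 38.2 ± 0.236 FPKM in control libraries, and fell by 0.79 ± 0.06 in shIDH1 cells (edgeR adjusted p = 4.68e-07). Its change of -0.06 ± 0.06 in shJOSD2 cells was not called, and the hairpins differed by -0.74 ± 0.06. VCL averaged 65.1 ± 6.57 FPKM in shIDH1, 69.3 ± 0.514 FPKM in shJOSD2 and 92.6 ± 1.51 FPKM in control libraries, and fell by 0.51 ± 0.06 in shIDH1 cells and by 0.57 ± 0.06 in shJOSD2 cells. The LIM-only proteins FHL1 and FHL2, which bind integrins and transcription factors, went the other way in shJOSD2 cells. FHL1 averaged 18.2 ± 1.17 FPKM in shIDH1, 23.2 ± 0.0399 FPKM in shJOSD2 and 15.6 ± 0.866 FPKM in control libraries, rising by 0.22 ± 0.06 in shIDH1 cells and by 0.42 ± 0.06 in shJOSD2 cells (edgeR adjusted p = 0.00742 and 0.000105). FHL2 averaged 14.1 ± 1.58 FPKM in shIDH1, 22.0 ± 0.296 FPKM in shJOSD2 and 14.6 ± 0.528 FPKM in control libraries, and rose by 0.44 ± 0.08 in shJOSD2 cells (edgeR adjusted p = 0.00105). PDLIM7 was called in neither comparison, with changes of -0.03 ± 0.05 in shIDH1 cells and 0.06 ± 0.05 in shJOSD2 cells. It stood at 27.0 to 27.3 FPKM in shIDH1 libraries, 31.7 to 32.4 FPKM in shJOSD2 libraries and 27.4 to 28.0 FPKM in control libraries, so shJOSD2 libraries lay above the rest. Without TMM, PDLIM7 was called higher in shJOSD2 cells (0.22; edgeR adjusted p = 0.00298), as it was in both limma settings.

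Profilin and cofilin of the ubiquitous kind fell with both hairpins by similar amounts. PFN1 averaged 180 ± 9.59 FPKM in shIDH1, 201 ± 9.91 FPKM in shJOSD2 and 303 ± 23.0 FPKM in control libraries, and fell by 0.75 ± 0.08 in shIDH1 cells and by 0.74 ± 0.08 in shJOSD2 cells (edgeR adjusted p = 4.98e-06 and 1.35e-05). CFL1 averaged 89.3 ± 3.78 FPKM in shIDH1, 95.3 ± 1.91 FPKM in shJOSD2 and 157 ± 12.9 FPKM in control libraries, and fell by 0.82 ± 0.07 in shIDH1 cells and by 0.87 ± 0.07 in shJOSD2 cells (edgeR adjusted p = 1.50e-06 and 2.61e-06). Their relatives had smaller changes. PFN2 fell by 0.35 ± 0.08 in shIDH1 cells, with -0.03 ± 0.08 in shJOSD2 cells, and CFL2 rose by 0.17 ± 0.05 in shIDH1 cells, a call lost with control replicate 1 as the lone control (0.18), with -0.08 ± 0.05 in shJOSD2 cells.

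Genes of different Arp2/3 subunits were lower under different hairpins. Of 8 genes, 6 were called lower in shIDH1 cells, where 25.6% of all tested genes were, and 7 in shJOSD2 cells, where 20.1% were. None was called higher in either. ARPC5 (ENSG00000162704; chromosome 1, 183620846 to 183635783, minus strand) stood at 11.1, 9.95 and 9.88 FPKM in shIDH1 libraries, 2.76, 3.23 and 2.85 FPKM in shJOSD2 libraries, and 11.7, 10.8 and 12.8 FPKM in control libraries. The shJOSD2 libraries lay far below the rest, and the other groups overlapped. ARPC5 fell by 2.15 ± 0.08 in shJOSD2 cells (edgeR adjusted p = 4.72e-09), and its change of -0.19 ± 0.07 in shIDH1 cells (edgeR adjusted p = 0.0446) was lost in 16 of 20 settings, at -0.20 without control replicate 1 and -0.15 when that library was the lone control. ARPC1B, which with ARPC1A forms alternative subunits of the complex, stood at 84.2, 88.8 and 88.7 FPKM in shIDH1 libraries, 42.4, 37.6 and 32.6 FPKM in shJOSD2 libraries, and 86.5, 82.2 and 83.0 FPKM in control libraries. It fell by 1.31 ± 0.09 in shJOSD2 cells (edgeR adjusted p = 3.21e-07), with 0.06 ± 0.08 in shIDH1 cells. ACTR2, the Arp2 subunit, stood at 82.0, 72.2 and 72.3 FPKM in shIDH1 libraries, 38.0, 39.2 and 37.8 FPKM in shJOSD2 libraries, and 85.6, 74.2 and 87.4 FPKM in control libraries. ACTR2 fell by 1.25 ± 0.06 in shJOSD2 cells (edgeR adjusted p = 7.65e-08) and its change of -0.13 ± 0.06 in shIDH1 cells was not called.

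ARPC2 and ARPC1A were the Arp2/3 genes called lower in shIDH1 than in shJOSD2 cells. ARPC4, at 11.75 to 15.05 FPKM in shIDH1 libraries and 16.18 to 17.17 FPKM in shJOSD2 libraries, did not overlap between the hairpins, and its difference of -0.18 ± 0.09 was not called but was called in 4 alternatives (-0.33 without TMM). ARPC2 stood at 22.8, 21.9 and 21.8 FPKM in shIDH1 libraries, 39.5, 42.7 and 42.3 FPKM in shJOSD2 libraries, and 52.2, 51.7 and 47.3 FPKM in control libraries, with no overlap. It fell by 1.19 ± 0.06 in shIDH1 cells and by 0.43 ± 0.06 in shJOSD2 cells, and the hairpins differed by -0.76 ± 0.06 (edgeR adjusted p = 5.28e-07). ARPC1A averaged 56.9 ± 1.21 FPKM in shIDH1, 98.3 ± 8.91 FPKM in shJOSD2 and 85.4 ± 6.59 FPKM in control libraries, and fell by 0.59 ± 0.08 in shIDH1 cells, with 0.05 ± 0.08 in shJOSD2 cells. ARPC1A thus made up 39.5% ± 0.689 of the ARPC1 pair's FPKM in shIDH1 libraries, 72.4% ± 1.33 in shJOSD2 libraries and 50.4% ± 2.54 in control libraries. These shares did not overlap between groups (exact two-sided permutation p = 0.1 for each pair, the smallest possible), and by counts they were 25.3% in shIDH1, 57.6% in shJOSD2 and 34.5% in control libraries. The annotation places AC004922.1 across both ARPC1A and ARPC1B on the same strand, and the counting may have shared reads with it.

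The other Arp2/3 genes fell with both hairpins. ACTR3, the Arp3 subunit, fell by 0.42 ± 0.06 in shIDH1 cells and by 0.69 ± 0.06 in shJOSD2 cells (edgeR adjusted p = 0.000101 and 3.91e-06). ARPC4 fell by 0.87 ± 0.09 in shIDH1 cells and by 0.69 ± 0.09 in shJOSD2 cells, and its reads overlap the readthrough gene ARPC4-TTLL3 on the same strand. ARPC3 fell by 0.26 ± 0.06 in shIDH1 cells and by 0.29 ± 0.06 in shJOSD2 cells, the shJOSD2 call being absent without TMM.

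Among genes acting at filament ends, the formins DIAPH3 and DIAPH1 fell with both hairpins and further with shIDH1. DIAPH3 stood at 2.37, 2.17 and 1.93 FPKM in shIDH1 libraries, 3.83, 4.08 and 3.75 FPKM in shJOSD2 libraries, and 8.22, 7.67 and 9.06 FPKM in control libraries. It fell by 1.95 ± 0.09 in shIDH1 cells and by 1.24 ± 0.08 in shJOSD2 cells (edgeR adjusted p = 4.60e-09 and 4.52e-07). DIAPH1 stood at 18.0, 15.6 and 15.9 FPKM in shIDH1 libraries, 26.5, 27.7 and 25.3 FPKM in shJOSD2 libraries, and 35.5, 32.7 and 36.6 FPKM in control libraries. It fell by 1.08 ± 0.06 in shIDH1 cells and by 0.55 ± 0.06 in shJOSD2 cells (edgeR adjusted p = 3.81e-08 and 2.70e-05). For both formins the groups did not overlap, and shIDH1 was lower than shJOSD2 by the test, with log2 differences of -0.70 ± 0.09 for DIAPH3 and -0.54 ± 0.06 for DIAPH1.

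The subunits of capping protein, which closes the growing end of a filament, moved little. CAPZB averaged 8.37 ± 0.475 FPKM in shIDH1, 7.30 ± 0.182 FPKM in shJOSD2 and 8.56 ± 0.184 FPKM in control libraries, and fell by 0.38 ± 0.05 in shJOSD2 cells (edgeR adjusted p = 0.000103). CAPZA1 averaged 50.9 ± 3.66 FPKM in shIDH1, 45.9 ± 1.22 FPKM in shJOSD2 and 50.0 ± 4.53 FPKM in control libraries, and its change of -0.27 ± 0.07 in shJOSD2 cells (edgeR adjusted p = 0.00650) was lost in 4 of 20 settings, library sizes without TMM (-0.12) and control replicate 1 as the lone control (-0.22) among them. Neither was called in shIDH1 cells, with -0.03 ± 0.05 for CAPZB and 0.02 ± 0.07 for CAPZA1.

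The direct comparison of the hairpins asked which of these genes respond unequally. In shIDH1 against shJOSD2, 14 of the 47 genes were called higher, with 20.8% of all tested genes, and 18 were called lower, with 24.0% of all tested genes, and the median difference was -0.01 against -0.06 over all genes. The largest differences toward shIDH1 were those of ARPC5 (1.95 ± 0.08), ARPC1B (1.36 ± 0.09), TPM1 (1.27 ± 0.05) and ACTR2 (1.12 ± 0.06). Toward shJOSD2 they were those of CNN1 (-2.59 ± 0.42), CALD1 (-2.36 ± 0.07), MYH10 (-1.21 ± 0.08) and MYH9 (-1.02 ± 0.07). CNN1 is at low levels, and its difference was -1.14 with limma on log2(FPKM + 1), smaller than that fitted for CALD1. Of the 7 focal adhesion and LIM genes, 5 were lower in shIDH1 than in shJOSD2 cells and none was higher. Without TMM the split was 10 higher and 22 lower for the 47 genes, and 3316 higher and 6653 lower over all genes in place of 4479 and 5156. The calls for ACTG1, ACTR3, CFL2 and CAPZA1 were lost without TMM, and that for FHL1 (-0.20 ± 0.06) without shIDH1 replicate 3.

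**Figure D4:**
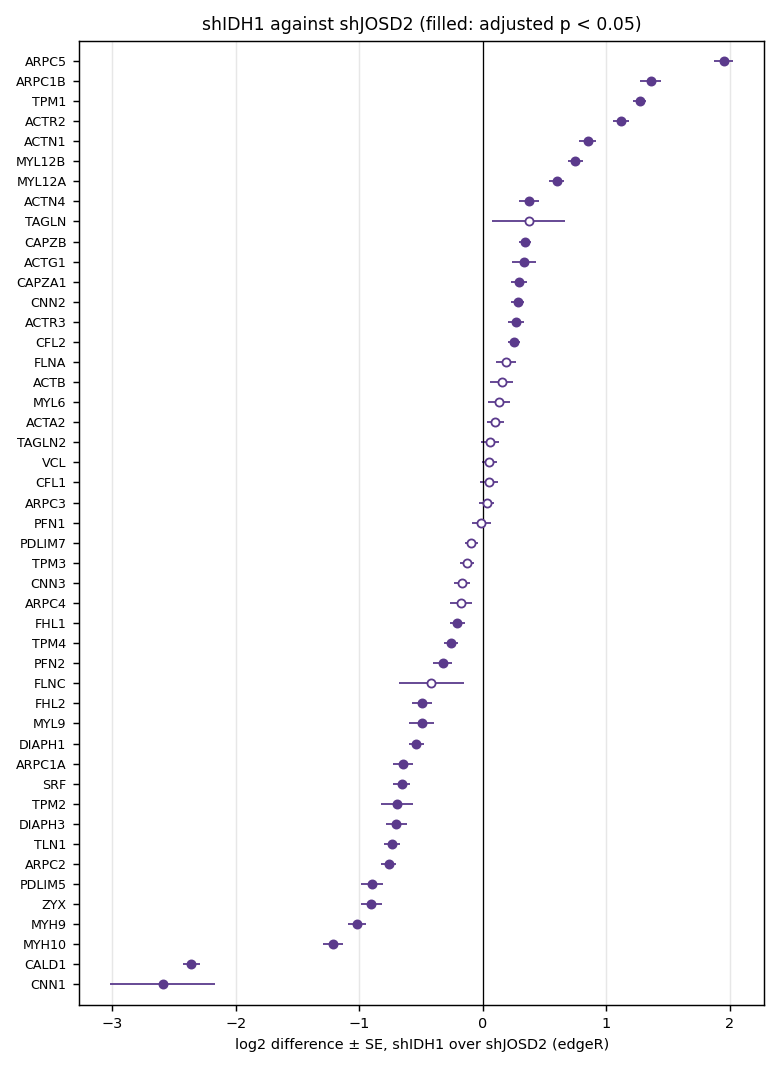
Fitted log2 difference (x axis, edgeR, ± SE, 3 libraries per group) between shIDH1 and shJOSD2 for each of the 47 genes (rows, ordered by the difference), with filled points for an adjusted p under 0.05. Points to the right are higher in shIDH1, led by ARPC5 at 1.95, and points to the left are higher in shJOSD2, led by CNN1 at -2.59 (-1.14 with limma on log2(FPKM + 1)) and CALD1 at -2.36.

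Genes that act on the same filaments, or with SRF, but lie outside the 47 were examined in 5 lists. Their counts stand against a background of 24.5% of all tested genes called higher and 25.6% lower in shIDH1 cells, and 18.2% higher and 20.1% lower in shJOSD2 cells. That background includes genes with few counts, which are called less often. With at least 40 counts in 3 libraries required, 16893 genes remained. Of these, 5244 were called higher and 5236 lower in shIDH1 cells, and 4081 and 4154 in shJOSD2 cells. The part of abundance in the shares of the 47 genes and of the lists was not tested. Of 6 tested SRF cofactors, 1 was called higher and 3 lower in shIDH1 cells, and 2 higher and 1 lower in shJOSD2 cells. MRTFB rose by 0.65 ± 0.08 in shIDH1 cells and by 0.41 ± 0.08 in shJOSD2 cells, whereas MRTFA fell by 0.31 ± 0.08 in shIDH1 cells and was not called in shJOSD2 cells (-0.13 ± 0.08). The ternary complex factor ELK1 fell by 0.66 ± 0.12 in shIDH1 cells and by 1.22 ± 0.13 in shJOSD2 cells. ELK3 averaged 15.5 ± 2.14 FPKM in shIDH1, 40.6 ± 1.35 FPKM in shJOSD2 and 26.2 ± 2.78 FPKM in control libraries, and fell by 0.76 ± 0.09 in shIDH1 cells and rose by 0.48 ± 0.09 in shJOSD2 cells.

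Of 17 nucleation promoting factors and other formins, 5 were called higher (29.4%) and 6 lower (35.3%) in shIDH1 cells, not far from the 24.5% and 25.6% over all tested genes. In shJOSD2 cells 4 were higher (23.5%) and 7 lower (41.2%), against 18.2% and 20.1%. WASF3, a WAVE protein that switches on Arp2/3, averaged 0.981 ± 0.192 FPKM in shIDH1, 7.98 ± 0.281 FPKM in shJOSD2 and 3.31 ± 0.642 FPKM in control libraries, with called changes of -1.75 ± 0.15 in shIDH1 cells and 1.12 ± 0.14 in shJOSD2 cells. ABI1, a subunit of the WAVE complex, averaged 16.1 ± 0.217 FPKM in shIDH1, 6.94 ± 0.287 FPKM in shJOSD2 and 13.5 ± 1.26 FPKM in control libraries, and fell by 1.11 ± 0.07 in shJOSD2 cells while rising by 0.26 ± 0.07 in shIDH1 cells. The formin INF2 fell by 1.19 ± 0.07 in shJOSD2 cells, with -0.07 ± 0.07 in shIDH1 cells, and the formin DAAM1 rose by 1.303 ± 0.09 in shIDH1 cells and by 1.32 ± 0.09 in shJOSD2 cells.

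Of 31 other filament binding, bundling and capping genes, 11 were called higher (35.5%) and 12 lower (38.7%) in shIDH1 cells, against 24.5% and 25.6% of all tested genes. In shJOSD2 cells 5 were higher (16.1%) and 17 lower (54.8%), against 18.2% and 20.1%. ANLN, the anillin scaffold of the contractile ring in dividing cells, averaged 7.18 ± 1.76 FPKM in shIDH1, 29.3 ± 0.608 FPKM in shJOSD2 and 76.1 ± 6.75 FPKM in control libraries, and fell by 3.41 ± 0.14 in shIDH1 cells and by 1.52 ± 0.13 in shJOSD2 cells. FSCN1, the fascin that bundles filaments in filopodia, averaged 42.1 ± 3.32 FPKM in shIDH1, 19.6 ± 0.409 FPKM in shJOSD2 and 81.6 ± 0.652 FPKM in control libraries, and fell by 0.96 ± 0.06 in shIDH1 cells and by 2.20 ± 0.06 in shJOSD2 cells. VASP, which lengthens filaments at adhesions, fell by 1.44 ± 0.06 in shIDH1 cells and by 0.44 ± 0.06 in shJOSD2 cells, and TMOD1, which caps the slow end of filaments, fell by 1.48 ± 0.39 in shIDH1 cells at levels under 1 FPKM.

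Of 20 other focal adhesion genes, 8 were called higher (40%) and 7 lower (35.0%) in shIDH1 cells, against 24.5% and 25.6% of all tested genes. In shJOSD2 cells 4 were higher (20.0%) and 10 lower (50.0%), against 18.2% and 20.1%. LASP1, a LIM and SH3 protein of adhesions, averaged 192 ± 3.22 FPKM in shIDH1, 30.1 ± 0.0873 FPKM in shJOSD2 and 150 ± 2.97 FPKM in control libraries, fell by 2.47 ± 0.05 in shJOSD2 cells and rose by 0.36 ± 0.05 in shIDH1 cells. PDLIM1 rose by 1.17 ± 0.08 in shIDH1 cells and by 0.23 ± 0.07 in shJOSD2 cells, CSRP1 fell by 0.83 ± 0.06 in shIDH1 cells and by 0.95 ± 0.06 in shJOSD2 cells, and TNS1, at under 1 FPKM, fell by 1.42 ± 0.18 in shIDH1 cells and rose by 0.82 ± 0.18 in shJOSD2 cells. Of 11 other myosin genes, 4 were called higher and 3 lower in shIDH1 cells, and 4 higher and 4 lower in shJOSD2 cells. MYL5 rose by 1.58 ± 0.20 in shIDH1 cells and by 1.45 ± 0.20 in shJOSD2 cells, MYO9B fell by 0.98 ± 0.08 in shIDH1 cells and by 1.08 ± 0.08 in shJOSD2 cells, MYO10 fell by 1.05 ± 0.06 in shIDH1 cells and by 0.63 ± 0.06 in shJOSD2 cells, and MYO1C fell by 0.93 ± 0.06 in shIDH1 cells and by 0.83 ± 0.06 in shJOSD2 cells.

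Markers of other cell types were measured beside ACTA2 and CNN1. Counts called in these short lists, here and in the next paragraph, stand against the same background over all tested genes. It was 24.5% called higher and 25.6% lower in shIDH1 cells, and 18.2% higher and 20.1% lower in shJOSD2 cells. The 8 biliary epithelial markers summed to 1838 to 1852 FPKM in shIDH1 libraries, 1477 to 1527 FPKM in shJOSD2 libraries and 1590 to 1855 FPKM in control libraries, with KRT7, KRT8, KRT18 and KRT19 at 186 FPKM or more in every library. Of these 8, 4 were called higher and 2 lower in shIDH1 cells, and 1 higher and 5 lower in shJOSD2 cells. The 8 smooth muscle markers, CNN1 among them, summed to 6.05 to 8.14 FPKM in shIDH1 libraries, 7.68 to 8.69 FPKM in shJOSD2 libraries and 6.55 to 8.18 FPKM in control libraries. Of the 6 tested, 1 was called higher and 1 lower in shIDH1 cells, and 1 higher and 2 lower in shJOSD2 cells. MYH11, the defining smooth muscle myosin, did not exceed 0.0464 FPKM, and MYOCD and ACTG2 were at or near 0 in every library. DES, which encodes desmin, rose by 2.44 ± 0.24 in shIDH1 cells, to 2.95, 3.08 and 4.59 FPKM against 0.731, 0.713 and 0.481 FPKM in control libraries, and fell by 1.25 ± 0.25 in shJOSD2 cells.

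The 9 fibroblast markers summed to 15.5 to 19.5 FPKM in shIDH1 libraries, 17.2 to 17.8 FPKM in shJOSD2 libraries and 8.10 to 9.36 FPKM in control libraries. Of the 6 tested, 4 were called higher in shIDH1 cells (66.7%, against 24.5% of all tested genes). In shJOSD2 cells 2 were called higher (33.3%, against 18.2%), and none was called lower under either hairpin. The median log2 change of the 6 was 1.83 in shIDH1 cells and 0.59 in shJOSD2 cells, against 0.01 and 0.03 over all tested genes. At least 2-fold higher calls numbered 3 in shIDH1 cells and 1 in shJOSD2 cells. DCN, LUM and FAP were at or near 0 throughout, while PDGFRB rose by 2.31 ± 0.23 in shIDH1 cells and by 2.51 ± 0.23 in shJOSD2 cells. This list moved in the same direction as ACTA2, and its part in the ACTA2 result was not tested. The 5 skeletal and cardiac muscle markers in the table summed to under 1 FPKM in every library, and of the 4 tested 0 were called in shIDH1 cells and 1 was called higher in shJOSD2 cells. Nuclear-retained and non-polyadenylated RNAs, a sign of RNA quality, summed to 37.9 to 38.4 FPKM in shIDH1 libraries, 38.6 to 40.3 FPKM in shJOSD2 libraries and 21.6 to 30.5 FPKM in control libraries, with 2 of 4 tested called higher and 1 lower in shIDH1 cells and 2 higher in shJOSD2 cells, and their part in the results was not tested. The 8 hepatocyte markers summed to 92.7 to 98.4 FPKM in shIDH1 libraries, 57.8 to 60.7 FPKM in shJOSD2 libraries and 38.5 to 92.5 FPKM in control libraries, the lowest being control replicate 1, and under each hairpin 2 were called higher and 4 lower. By range of FPKM, 6 of the 8 overlapped the controls under each hairpin and 0 lay wholly below them, so none of the lower calls separated the groups.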

How the data were processed

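The authors deposited 1 table for the series with a count and an FPKM (fragments per length of transcript and library size) for each gene and library, per the file headers. The submitters' processing notes name cutadapt 1.9, HISAT2 2.0.4, UMI-tools, StringTie 1.3.4d and GRCh38, without giving their roles. Libraries were strand-marked, made from poly(A) RNA and carried molecular identifiers, per the labels' protocols. Whether a count is a read or a fragment is not given in the sources used here. A single fragment may stand behind several counts, so low counts may hold fewer independent observations than their number. Dividing counts by 4 was therefore among the alternatives. Gene positions are those of the deposited table.

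From the deposited counts, genes passing filterByExpr (21492 of 36225) were fitted with edgeR 4.0.16 (quasi-likelihood F-test, TMM, all 9 libraries, Benjamini-Hochberg threshold 0.05) in R 4.3.3. Levels and shares come from the deposited FPKM. SEs were derived from the log2 change and its F. The script was tested on simulated data. Alternatives were 20, including DESeq2 1.42.0, limma 3.58.1 and each library left out. Nothing in the labels says that the replicate numbers pair libraries.

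Every library's value was given for actins, tropomyosins, myosin light chains, SRF and other members called with a log2 change of 1 or more against control. In the other lists, up to 4 called genes with the largest changes were named, most with a mean or a fitted change only. Members and lists were chosen with earlier results of these data known. A further gene list is not reported here.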

Additional observations from a re-analysis of the deposited data

How the results depend on the processing

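The number of the 47 genes called in each direction stayed within 1.5 times the reported count in all 20 alternatives. In shIDH1 against control it ran from 6 to 7 higher and from 28 to 30 lower, in shJOSD2 against control from 5 to 8 and from 25 to 32, and between the hairpins from 10 to 16 and from 17 to 22. Calls held in every alternative for 33 of 37, 29 of 37 and 27 of 32 genes. With each library left out in turn, calls over all genes numbered 9724 to 10635, 6939 to 8248 and 8430 to 9927, against 10769, 8237 and 9635 with all. A replicate block gave 7 higher and 29 lower, 6 and 30, and 14 and 18 members. Nothing in the labels says that the replicate numbers pair libraries. Deviations from the group means correlated at -0.018 to 0.0378 between same-numbered libraries and at -0.0549 to 0.0287 between others. With 3 libraries per group these values cannot exclude a pairing.

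Signs reversed for 1 call, FLNC in shIDH1 cells, and otherwise only for changes that were not called, and the cause was not tested. In shJOSD2 against control without TMM, CFL2 was 0.0755, MYH10 0.0386, PFN2 0.1253, TLN1 0.0979 and TPM1 0.0182. With limma on log2(FPKM + 0.1) they were 0.069, 0.0336, 0.1205, 0.0901 and 0.0119, and on log2(FPKM + 1) 0.0667, 0.0316, 0.1148, 0.0881 and 0.0116. In shIDH1 against shJOSD2 without TMM, ACTA2 was -0.051, ARPC3 -0.1218, CFL1 -0.101, MYL6 -0.0227, TAGLN2 -0.096 and VCL -0.0975. With limma they were -0.0448, -0.1149, -0.0946, -0.0111, -0.0895 and -0.0947 on log2(FPKM + 0.1), and -0.0433, -0.1133, -0.0937, -0.0111, -0.0891 and -0.0934 on log2(FPKM + 1). In that comparison PFN1 was 0.0024 with DESeq2, 0.0166 with RLE size factors and 0.027 with only the groups compared, and with RLE MYL12A in shJOSD2 cells was -0.0089. With control replicate 1 as the lone control, shIDH1 changes were 0.0476 for ACTN4, 0.0306 for FLNC and 0.021 for PDLIM7, and FLNC in shJOSD2 cells was 0.4401.

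With each library left out in turn, shIDH1 changes spanned -0.1826 to 0.0051 for TPM2, -0.091 to 0.0593 for ACTN4, -0.0259 to 0.0989 for CAPZA1, -0.0396 to 0.0007 for PDLIM7 and -0.1113 to 0.0487 for FHL2. The shJOSD2 changes spanned -0.0097 to 0.1424 for ARPC1A, -0.0725 to 0.0205 for PFN2, -0.205 to 0.3591 for TAGLN and -0.0373 to 0.057 for MYL12A. Between the hairpins ARPC3 spanned -0.0125 to 0.0724, PFN1 -0.0659 to 0.0322 and VCL -0.0156 to 0.1044. Members with the fewest counts per library were CNN1 (27 to 387) and TAGLN (76 to 200), where counting error weighs most.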
